A study of Homo sapiens with 4 samples.

Results

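The genes described here are ATF4, a transcription factor that cells make when amino acids run short, and 7 genes that it activates or that are induced with it, CHAC1, DDIT3, TRIB3, ASNS, SESN2, DDIT4 and ATF3. They were looked up in m6A peak lists from H1975, an established human lung adenocarcinoma (LUAD) cell line. A peak was assigned to a gene when its summit lay in a window around that gene in the hg19 genome build, a rule that uses positions and no peak value, although the genes were picked with earlier results of these data known. Of the 21693 peaks in both lists, 6 lay in these windows, 2 of 9441 in the control list and 4 of 12252 in the METTL3 knockdown list. The 2 control peaks lay in TRIB3 and DDIT4, and the 4 knockdown peaks in TRIB3, DDIT4, DDIT3 and CHAC1. No peak was listed for ATF4, ASNS, SESN2 or ATF3 in either library.

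METTL3 is the catalytic subunit of the enzyme that writes N6-methyladenosine (m6A) on mRNA. The study made these libraries, with and without METTL3 knockdown, to look for m6A sites in the mRNA of SLC7A11. H1975 cells, kept in a high-glucose medium, received a lentiviral control shRNA (NC-sh) or an shRNA against METTL3 (METTL3-sh), and the labels give 48 h for the knockdown. In MeRIP-seq, an antibody against m6A captures methylated fragments of the RNA for sequencing, and uncaptured RNA (Input) is sequenced beside them. The 4 samples were 1 Input and 1 MeRIP library of each condition, so the conditions could not be tested against each other, and each difference below is one between single libraries. The knockdown rests on 1 shRNA. The paper reports a check of its efficiency in H1975 cells, and that METTL3 raised global m6A there. The level of METTL3 in these libraries was not analysed here. The labels give H1975, but each of the 9441 and 12252 peaks carries a name that starts with H1299, a different LUAD line, and the cell line is taken from the labels. The shRNA that separates the conditions is the one in the study's list of sequences, printed here in lower case, and that list does not state its orientation.
METTL3 shRNA: gctgcacttcagacgaattat

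The genes belong to the integrated stress response. When amino acids are lacking, uncharged tRNAs activate the kinase GCN2, which phosphorylates the translation factor eIF2. Most protein synthesis then falls, while the ATF4 mRNA is translated more because of short reading frames in its leader. ATF4 protein, paired with C/EBP family members, binds a composite element in its target genes and raises amino acid uptake and synthesis, among others through the cystine transporter SLC7A11. Cystine shortage is one trigger of this response, and CHAC1 mRNA is widely used as its readout. m6A is known to mark many mRNAs near the stop codon, where reader proteins can shorten their half-life.

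Peaks were compared by 3 deposited values. The pileup is the number of MeRIP reads over the summit, scaled by a factor that is constant within a library. Dividing it by its step (0.327 in NC-sh, against 0.364 in METTL3-sh) gave the whole number of reads. Fold enrichment is pileup over the number of reads expected at that place from Input, with a pseudocount of 1 on both, and that local expectation was computed back from these values. The −log10 q is the peak caller's adjusted score for a peak against that expectation within its own library. All listed peaks exceed a fold enrichment of 6, so a gene without a listed peak may still carry m6A below this limit. Total depth of the libraries is not known from the lists. The median peak had 169 reads over its summit in NC-sh, against 132 in METTL3-sh. Intervals below are 95% intervals from the counting of MeRIP reads, and reads without molecular identifiers are not independent molecules.

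TRIB3 is a pseudokinase that is induced by ATF4 and in turn binds ATF4 and the kinase AKT and dampens both. It held the most deeply covered of the 6 peaks. In NC-sh the peak was at chr20:377043-377649 (607 bp) and its summit held 1441 reads (95% CI 1368 to 1517), more than 92.7% of the peaks in that list. In METTL3-sh it was at chr20:376987-377688 (702 bp) and held 2159 reads (95% CI 2069 to 2252), more than 96.5% of its list. Both summits fell on the same base, 377393, at 91.1% of the way through the window in the direction of transcription. The peaks therefore lay toward the 3′ end of the gene, though no exon or UTR was assigned because no hg19 transcript models were used. Fold enrichment at this site was 8.15 in NC-sh (95% CI 7.73 to 8.58) and 8.93 in METTL3-sh (95% CI 8.56 to 9.32). These were modest values, below the list medians of 10.2 and 9.79. The expectation from Input was 57.0 at the NC-sh summit, against 87.0 for METTL3-sh, higher than at 97.4% and 98.6% of the peaks in the same lists. TRIB3 was thus a site of many MeRIP reads over a high Input.

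DDIT4, also called REDD1, restrains mTORC1 through the TSC complex and is induced by several stresses. Its NC-sh peak was at chr10:74034611-74035124 (514 bp) with 442 reads at the summit (95% CI 402 to 485). Its METTL3-sh peak was at chr10:74034560-74035154 (595 bp) and contained the whole NC-sh peak, with 1130 reads (95% CI 1065 to 1198). The summits were 86 bp apart, at 65.0% and 62.2% of the window. Fold enrichment was 9.10 in NC-sh (95% CI 8.28 to 9.99) and 9.85 in METTL3-sh (95% CI 9.29 to 10.4). Among the 6 peaks, these were the highest of each library, and they lay above 41.8% of the NC-sh list and 50.5% of the METTL3-sh list. The expectation from Input was 15.0 for the NC-sh peak, against 40.8 for that of METTL3-sh.

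**Figure D1:**
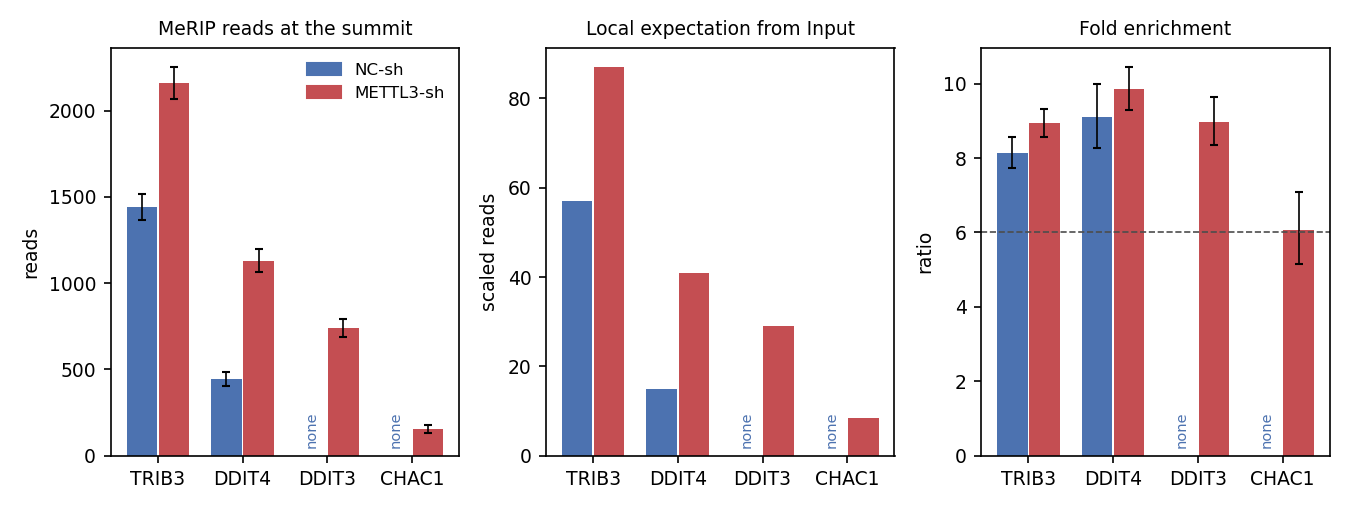
MeRIP reads at the summit, local expectation from Input (scaled reads) and fold enrichment (ratio) for the 6 peaks, as bars from 0 for NC-sh (blue) and METTL3-sh (red). Error bars are 95% intervals from counting the MeRIP reads, and the dashed line marks the fold enrichment of 6 below which no peak was listed. Reads and expectation are higher in METTL3-sh at TRIB3 and DDIT4, while fold enrichment differs little and the CHAC1 bar ends at the line.

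At both genes with a peak in each library, MeRIP reads and the Input expectation were higher in METTL3-sh, and fold enrichment was nearly level. Over the 6863 pairs of peaks that overlap each other and no further peak, reads were higher in METTL3-sh in 62.5%. The expectation was higher in 62.2% of these pairs, and the shares were counted separately for each measure. Reads at the DDIT4 summit were 2.56 times as many in METTL3-sh (95% CI 2.29 to 2.86), and the local expectation was 2.72 times as high. Reads at the TRIB3 summit were 1.498 times as many (95% CI 1.40 to 1.60), with an expectation 1.53 times as high. As the step per read is larger in METTL3-sh, the scaled pileup was 2.84 times as high at DDIT4 and 1.66 times at TRIB3. Over all 6863 pairs the median ratio of pileup was 1.22, and pileup was higher in METTL3-sh in 75.7%. Fold enrichment, which divides this pileup by the expectation, was 1.08 times as high at DDIT4 and 1.10 times at TRIB3. On the log2 scale these ratios of fold enrichment were 0.11 (95% CI -0.046 to 0.28) for DDIT4 and 0.13 (95% CI 0.036 to 0.23) for TRIB3. These intervals leave out the error of Input, which the lists do not give, and any variation between replicate libraries.

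The same ratios over all pairs of peaks with no other overlap show where these genes differed from the rest. There were 6863 such pairs, with a median log2 ratio of fold enrichment of 0.13 and quartiles of -0.27 and 0.54. Neither member pair was past a 1.5-fold change of fold enrichment in either direction, while 22.9% of all pairs were at least 1.5-fold higher and 12.8% at least 1.5-fold lower in METTL3-sh. The ratio at DDIT4 was above that of 49.0% of pairs and the ratio at TRIB3 above 50.4%. Both therefore lay in the middle of the distribution. For reads at the summit the picture was different for DDIT4. Its log2 ratio of 1.35 was above that of 99.4% of pairs, whose median was 0.13, and reads were at least 1.5-fold higher in METTL3-sh in 14.9% of all pairs. TRIB3 fell just short of that fold, with a log2 ratio of reads of 0.58, above 85.1% of pairs. The local expectation was at least 1.5-fold higher at both genes, as it was in 27.8% of all pairs. DDIT4 was above 92.9% of pairs by this measure and TRIB3 above 73.4%. The expectation is built from Input reads in the region around the peak, and with 1 Input per condition a higher amount of the RNA cannot be told apart from a difference between the libraries.

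DDIT3 encodes CHOP, a C/EBP family partner of ATF4 that promotes cell death in prolonged stress. A peak was listed in METTL3-sh alone, at chr12:57909873-57911315. With 1443 bp it was the longest of the 6 peaks and longer than 97.7% of METTL3-sh peaks. Its summit held 738 reads (95% CI 686 to 793) over a local expectation of 29.0, and its fold enrichment was 8.98 (95% CI 8.34 to 9.65). This was clear of the limit, since 493 reads would have given a fold enrichment of 6 there. On the strand of DDIT3, the summit lay at 84.2% of the window, and the peak reached 127 bp past its 3′ edge. In RefSeq's GRCh38.p14 annotation, MARS1, the gene of methionyl-tRNA synthetase, overlaps DDIT3, as do MIR616 and LOC128125814, and the lists give no strand. That overlap is between whole genes in another build, and whether any of these genes reaches the peak was not checked. Where one does, its reads cannot be told apart from those of DDIT3. The peak is therefore assigned to the locus and not to the DDIT3 mRNA.

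CHAC1 degrades glutathione by cleaving off its glutamyl group and rises when cystine is short. Its peak was also listed in METTL3-sh alone, at chr15:41247713-41248458 (746 bp), with the summit at 61.0% of the window. The summit held 154 reads (95% CI 131 to 180) over a local expectation of 8.40. Fold enrichment was 6.06 (95% CI 5.16 to 7.08), which is just inside the limit of 6, and 105 of the 12252 METTL3-sh peaks had a lower one. One read fewer than the 154 found, 153, was the smallest number that would have kept the peak in the list. The presence of CHAC1 in the METTL3-sh list is therefore within the counting error of that limit.

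Of the 2 NC-sh peaks in these genes, 2 had a counterpart in METTL3-sh, and of the 4 METTL3-sh peaks, 2 had a counterpart in NC-sh. Over the whole lists, such a counterpart, sharing at least 1 bp, existed for 76.2% of the NC-sh list and 58.6% of the METTL3-sh list. The exact binomial 95% intervals for the 8 genes were 15.8 to 100% and 6.76 to 93.2%, and with 2 and 4 peaks no outcome could have set their shares apart from those of the lists. The absence of DDIT3 and CHAC1 from the NC-sh list does not show an absence of m6A. Peak numbers were missing from the lists, so peaks had been removed after calling, and 6 numbers were missing in NC-sh between the peaks that flank the DDIT3 window and 5 between those that flank CHAC1. The flanking NC-sh peaks were 419 kb and 105 kb from the edges of the DDIT3 window and 51.8 kb and 393 kb from those of CHAC1. A removed peak may have stood in either window or elsewhere in these gaps, and the reads at these places in NC-sh were not analysed here.

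The order of the genes depended on the measure. By fold enrichment in METTL3-sh, DDIT4 was followed by DDIT3, TRIB3 and CHAC1, and the interval of CHAC1 lay below those of the other 3, whose differences from each other were not tested. By reads at the summit and by −log10 q, TRIB3 came first, ahead of DDIT4, DDIT3 and CHAC1 in that order. The −log10 q was 444 for TRIB3, 249 for DDIT4, 154 for DDIT3 and 23.6 for CHAC1 in METTL3-sh. In NC-sh it was 251 for TRIB3 and 84.3 for DDIT4. None of the 6 peaks reached a fold enrichment of 10. Read in the direction in which the named gene is transcribed, the 6 summits, at 4 sites, lay at 61.0% of their window or beyond. For DDIT3 this takes the strand of DDIT3, which the lists do not give. Position is given in windows rounded to kb, so it is no measure of the distance to a stop codon.

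The 4 genes without a peak were ATF4 itself, ASNS, which makes asparagine from aspartate, SESN2, a leucine sensor that restrains mTORC1, and ATF3, a transcription factor induced early in the response. At ASNS no peak number was missing between the flanking peaks of either library, which were 670 kb and 78.6 kb from the window in NC-sh and 670 kb and 79.9 kb in METTL3-sh. No numbered peak had thus been removed at ASNS in either library, and the gaps extend well past the window, which is shorter than RefSeq's ASNS gene. The same held for ATF3 in NC-sh, where the flanking peaks were 231 kb and 65.0 kb away, whereas 1 number was missing around ATF3 in METTL3-sh. Around SESN2, 1 number was missing in each library. Around ATF4, 3 numbers were missing in NC-sh and 1 in METTL3-sh. In METTL3-sh a peak ended 4.96 kb before the ATF4 window, while the nearest NC-sh peak on that side was 87.9 kb away, and neither was counted as ATF4. The windows of ATF4, CHAC1, DDIT3 and DDIT4 span 3 to 5 kb and that of ATF3 spans 57 kb, so the empty windows include both short and long ones. The lists do not show how strongly a gene was expressed where it had no peak, so a gene that is little transcribed and an mRNA without m6A cannot be told apart.

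The genes were picked as ATF4 and its targets, so the element that ATF4 binds was looked for in their promoters as a description and not as an independent finding. The letters TGATGNAA, on either strand, were searched in RefSeq promoters of GRCh38.p14, each with 250 bases before and 50 after an annotated start. All 8 genes were matched by symbol, with 14 promoters because 5 of the genes have more than 1. The letters were found in 3 of the 8 genes, CHAC1, ASNS and ATF3, against 4.46% of all 27305 genes with a promoter, and in 3 of the 14 promoters, against 3.62% of all 35116. Each match is shown 5′ to 3′ on the strand of its gene, with the 8 matched letters in capitals and 10 bases on either side. What these 3 promoters share is the searched pattern, and the printed sequences differ from each other. In CHAC1 the match is on the opposite strand and so reads TTNCATCA.
CHAC1, first matched base 209 bases before the start: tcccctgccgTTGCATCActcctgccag
ASNS, first matched base 68 bases before the start: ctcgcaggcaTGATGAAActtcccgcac
ATF3, first matched base 191 bases before the start: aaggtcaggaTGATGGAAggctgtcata
Of these 3 genes, CHAC1 alone had a listed peak. TRIB3, DDIT4 and DDIT3 had peaks and none of these letters in their 300 bases, which says nothing about the element elsewhere. A match of letters is not a shown binding site.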

How the data were processed

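For each MeRIP library the deposited file is a list of peaks with positions, pileup (a signal), fold enrichment (a ratio), −log10 q and −log10 p. The submitters' processing notes name bcl2fastq, TopHat2 2.0.13, MACS2 2.1.0.20151222 and hg19, and the filter that left fold enrichments above 6 is not given in the sources used here. The Input libraries were used only through these values. Positions are 1-based.

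Windows were those of the rule, in hg19. The genes and lists were chosen with earlier results of these data known, and all 8 genes are named whatever their values. Reads at the summit were pileup divided by its step, and 100% of the pileup values were within 0.0055 of a whole number of steps. Poisson intervals for reads, exact binomial intervals for shares and conditional binomial intervals for ratios were used. Peaks were paired by an overlap of at least 1 bp, and a fold of 1.5 was counted as a change. The steps were tested on simulated data. Other genes of the pathway were not placed, since no hg19 annotation was used, and no sequence was read under a peak. Python 3.11.15, numpy 2.4.6, pandas 2.3.3, scipy 1.17.1 and matplotlib 3.10.9 were used. Alternatives were the window rule, filters on fold enrichment and −log10 q, the overlap rule, equal list sizes, other measures and centring on all pairs. The local expectation as a measure and windows widened by 5 kb were added after seeing the data.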

Additional observations from a re-analysis of the deposited data

How the results depend on the processing

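The number of peaks in the 8 genes stayed at 2 in NC-sh and 4 in METTL3-sh when any overlap with a window was counted and when windows were widened by 1 kb or by 5 kb. With a −log10 q at or above the median of both lists (36.6), 2 and 3 remained, CHAC1 being lost. With a fold enrichment of at least 10 the counts were 0 and 0, and no share could be given. The overlap shares stayed at 100% and 50% under the stricter overlaps and with equal list sizes. The median log2 ratio of fold enrichment over TRIB3 and DDIT4 was 0.12. In its place, pileup gave 1.12, reads at the summit 0.97, −log10 q 1.19 and the local expectation 1.03. Fold enrichment is the pileup divided by that expectation. After the median of all pairs was subtracted the ratio was -0.0038, so its sign rests on the centring. By gene, the log2 ratio was 0.58 for TRIB3 and 1.35 for DDIT4 with summed reads, and 0.74 and 1.51 with pileup. By −log10 q and by reads, TRIB3 moved to rank 1 in both libraries, DDIT4 to rank 2 in both and DDIT3 to rank 3 in METTL3-sh. No paired analysis was possible because there was a single MeRIP library of either condition. The values are further limited by the missing replicates, the unknown total depth, the absent strand, the removed peaks and the H1299 names in both lists.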
